A study of Mus musculus with 20 samples.

Results

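The matrix metalloproteinases (MMPs), the ADAM and ADAMTS metalloproteinases and their tissue inhibitors (TIMPs) were followed in mouse ovarian tumours under 5 treatments. The members were all gene symbols of the Mmp, Adam, Adamts and Timp series in the deposited expression table, which gave 79 of its 22417 symbols, namely 22 Mmp, 34 Adam, 19 Adamts and 4 Timp genes. Of the 79, 78 were matched to the count table, and Adam34l was not matched. A filter on low counts left 55 for testing, with 18 MMPs, 16 ADAMs, 18 ADAMTS genes and 3 TIMPs. The other 23 matched genes held at most 146 counts each over all 20 libraries, and Adam24, Adam26a, Adam26b, Adam29, Adam34, Adam39, Adam6a, Adam7 and Mmp1b held none.

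All tumours came from ID8, a cancer line of mouse ovarian surface epithelium, in a Trp53-/-Brca1-/- derivative that expresses luciferase, injected into the peritoneum of C57/BL6 females, whose age the labels do not give. The treatments were olaparib by mouth at 40 mg/kg/day (PARPi, 3 mice), 200 µg of anti-PD-L1 together with 100 µg of anti-CTLA-4 as immune checkpoint blockade (ICB, 3 mice), both of these (PARPi+ICB, 3 mice), olaparib and 20 µg of an antibody to VEGFA (PARPi+anti-VEGFA, 4 mice), and every agent at once (the full combination, 4 mice). Antibodies were given into the peritoneum 2 times a week, and untreated mice were the controls (n = 3). RNA of frozen tumour tissue was sequenced in bulk, 1 library per mouse, so tumour, stromal and immune cells were read together, and fewer cells of a type and less RNA per cell cannot be told apart.

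MMPs are zinc proteases that cut collagens, proteoglycans and other matrix proteins, and most are secreted as inactive proenzymes. ADAMs are mostly membrane-bound and shed the outer parts of cell-surface proteins such as cytokines and growth factors, while ADAMTS proteases are secreted and cut proteoglycans and procollagens. TIMPs block the active sites of MMPs, and TIMP3, which is bound in the matrix, also inhibits several ADAMs and ADAMTS proteases. In ovarian cancer these enzymes are known for matrix turnover during peritoneal spread and for release of growth factors.

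Libraries held 26.9 to 34.7 M counts. In 4 libraries (ICB replicate 3, PARPi+anti-VEGFA replicates 1 and 4, and full combination replicate 2) genes of pancreatic acinar cells were high. A group of 3 RNAs, Rn7sk, Lars2 and Mir6236, whose level can move with the quality of a library, also differed between groups. Their mean log2 CPM (counts per 1 M of the TMM-scaled library size) was 2.96 to 4.62 in the full combination, 2.72 to 2.81 with PARPi+anti-VEGFA, 2.95 to 3.53 with PARPi+ICB, 2.74 to 3.08 with ICB, 2.99 to 4.31 with PARPi and 4.47 to 4.82 in controls. Among the treated libraries, replicate 4 of the full combination alone lay in the range of the controls on this mean. Taken singly, its Rn7sk (2.83 CPM) lay in the control range, its Lars2 (53.5 CPM) below it and its Mir6236 (97 CPM) above it.

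To compare levels between genes, CPM was divided by the exon length of the gene in kb. On this scale the inhibitors were the most abundant members in controls, with Timp2 at 218 ± 17.6, Timp3 at 121 ± 1.07 and Timp1 at 68.3 ± 3.1 (SD, n = 3). Adam10, a sheddase of Notch receptors and cadherins, followed at 67.2 ± 3.35 and overlapped with Timp1. Mmp11 (stromelysin-3) stood at 47.6 ± 3.29, Adam9 at 27.2 ± 0.749, Mmp2 at 24.2 ± 1.54 and Adamts10 at 22.6 ± 0.802. In all, 13 members exceeded 10 in controls, 19 lay between 1 and 10 and 46 lay under 1. Most ADAMs of testis and germ cells were among the last, with 5 of 22 passing the filter. Summed per family on the same scale, the MMPs reached 147 ± 14 in the full combination, 139 ± 6.6 with PARPi+anti-VEGFA, 140.4 ± 9.18 with PARPi+ICB, 143 ± 9.64 with ICB and 126 ± 9.25 with PARPi, against 120.4 ± 2.56 in controls. The TIMP sum was 507 ± 27.5, 489 ± 31, 497 ± 39.6, 451 ± 43.8 and 400.5 ± 17.9 in the same order, against 407 ± 19.3 in controls. The TIMPs thus made up 58.8 ± 0.624% of the RNA of all members in the full combination and 54.2 ± 1.7% in controls.

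**Figure D1:**
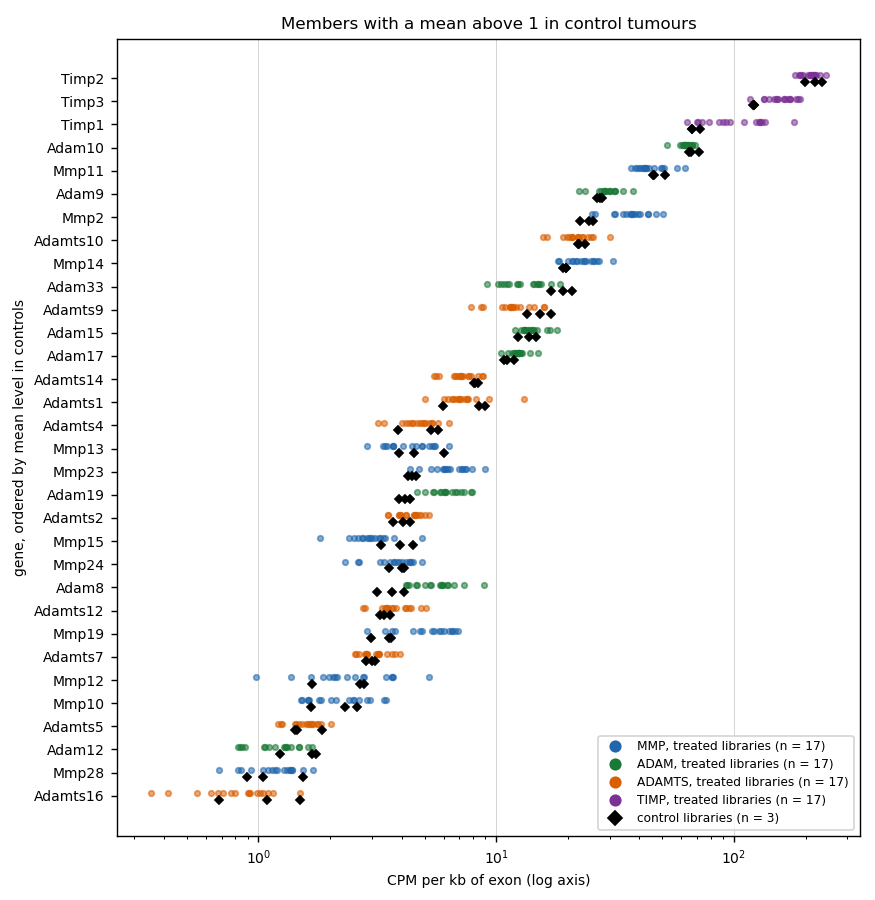
CPM per kb of exon (log axis) of the 32 members with a control mean above 1, 1 point per library, with treated libraries (coloured by family, n = 17) above control libraries (black diamonds, n = 3). Timp2, Timp3, Timp1 and Adam10 lead, and the control points of Adam33 lie towards the upper end of the treated ones.

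Each treatment was first set against the untreated tumours with edgeR's quasi-likelihood test over 18144 genes, and a gene was called at a Benjamini-Hochberg adjusted p under 0.05. The 5 comparisons share the same 3 controls. With PARPi alone 0 of 55 members were called, where 0.0661% of all genes were. Without adjustment 6 of 55 members had p under 0.05, against 2065 of all 18144 genes. DESeq2 called 1 member (Mmp25), against 2.11% of all genes, and limma called 0. With ICB alone 3 members were called and all were higher, where 2.2% of all genes were called and 1.23% were called higher. With PARPi+ICB 16 members were called higher and 4 lower (36.4% of those tested), where 16.1% of all genes were called, 9.58% higher and 6.52% lower. With PARPi+anti-VEGFA 18 were higher and 3 lower (38.2%), where 17.8% of all genes were called, 9.99% higher and 7.8% lower. In the full combination 17 were higher and 4 lower (38.2%), where 24.2% of all genes were called, 12.6% higher and 11.5% lower. The median log2 fold change of the tested members was 0.16 in the full combination, 0.24 with PARPi+anti-VEGFA and 0.19 with PARPi+ICB, and that of all tested genes -0.02 in each of these comparisons, given as a description. Of the 55, 5 (Adam6b, Adamts13, Mmp8, Mmp16 and Mmp27, named after their values were seen) passed the filter on low counts only with libraries of the combinations, so they could enter only by being high there. Of the called members, 13 of 21 in the full combination, 14 of 21 with PARPi+anti-VEGFA, 11 of 20 with PARPi+ICB and 0 of 3 with ICB stayed called whichever single library was left out. With the covariate for Rn7sk, Lars2 and Mir6236 the counts were 16 in the full combination, 0 with PARPi+anti-VEGFA, 6 with PARPi+ICB and 0 with ICB. Of all 18144 genes, 2471, 0, 630 and 0 were called with it, in the same order. In the full combination the calls of Adam23, Adam6b, Adamts6, Adamts14 and Mmp13 were lost, and with PARPi+ICB those of Timp3, Mmp2, Mmp14, Mmp19, Adam19 and Adamts19 were kept. No library of PARPi+anti-VEGFA, PARPi+ICB or ICB lay in the control range in these RNAs. The part of library quality in the changes of these groups therefore cannot be told apart from the treatment here. In the full combination replicate 4 alone lay in that range, and only on the mean of the 3 RNAs.

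**Figure D2:**
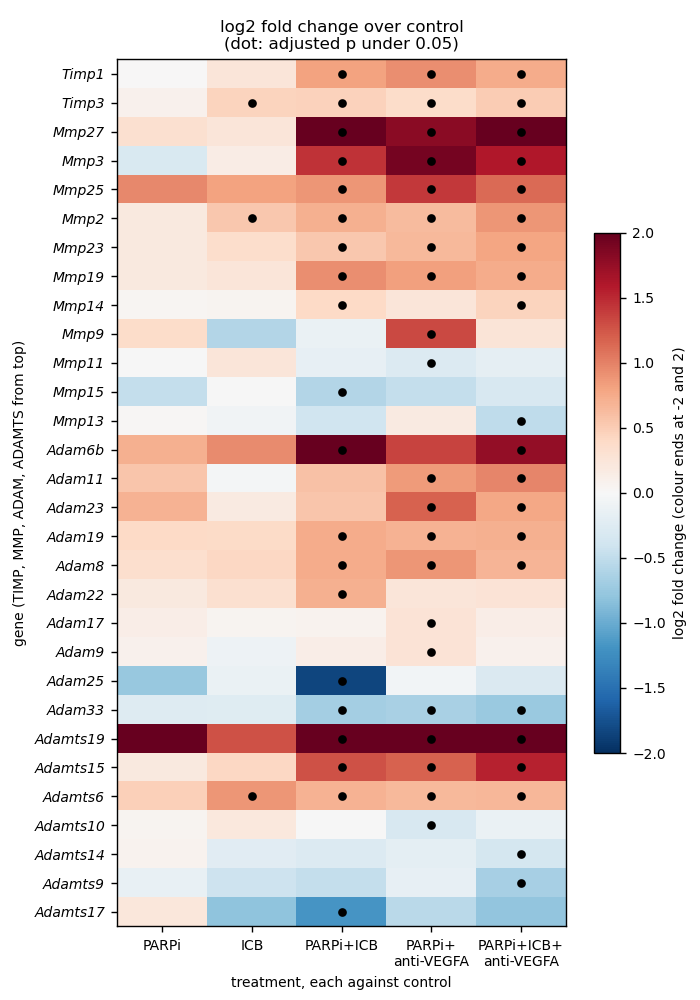
Log2 fold change over untreated controls of the 30 members called in at least 1 of the 5 comparisons (columns), with rows ordered by family and colour ending at -2 and 2. Dots mark an adjusted p under 0.05. Timp1, Timp3, Mmp2, Mmp3, Mmp19, Adam19 and Adamts15 are red with a dot in the 3 combinations, and Adam33 is blue with a dot there.

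Among the inhibitors, Timp1 and Timp3 rose in all 3 combinations and Timp2 did not pass the test in any. Timp1, a secreted inhibitor induced by inflammatory cytokines, had 116, 113, 79.6 and 98.2 CPM in the full combination, 76.9, 114, 109.9 and 159 CPM with PARPi+anti-VEGFA, 85.3, 114 and 119.7 CPM with PARPi+ICB, 62.9, 69.4 and 81.8 CPM with ICB, 62.1, 65 and 56.1 CPM with PARPi, against 63.8, 58.9 and 59.2 CPM in controls. All libraries of the 3 combinations lay above every control, while ICB and PARPi libraries overlapped with the control range. The log2 fold change was 0.75 ± 0.18 in the full combination (adjusted p = 0.00757), 0.92 ± 0.19 with PARPi+anti-VEGFA (0.00287) and 0.81 ± 0.19 with PARPi+ICB (0.0089). PARPi+anti-VEGFA replicate 4 was the highest of the 20 libraries. With the covariate the call was kept in the full combination only, at an adjusted p of 0.0439.

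Timp3 had 1145, 1389, 1542 and 1510 CPM in the full combination, 1396, 1252, 1232 and 1202 CPM with PARPi+anti-VEGFA, 1321, 1396 and 1344 CPM with PARPi+ICB, 1317, 1225 and 1480 CPM with ICB, 1089, 952 and 1090 CPM with PARPi, against 988, 974 and 991 CPM in controls. Every library outside the PARPi group and the controls lay above all controls, and PARPi libraries fell on both sides. It rose by 0.50 ± 0.09 in the full combination (0.000944), 0.37 ± 0.09 with PARPi+anti-VEGFA (0.0102), 0.46 ± 0.10 with PARPi+ICB (0.00385) and 0.45 ± 0.10 with ICB (0.0231) on the log2 scale. The ICB call was lost without any of 5 single libraries, namely each control and ICB replicates 1 and 3, at adjusted p of 0.0604 to 0.0894. Its exons overlap 1733 bases of Syn3 on the opposite strand, and the strand setting of the counting is not given in the sources used here. Timp2, which also takes part in activating MMP2, averaged 859 ± 65.1 CPM in the full combination and 850.2 ± 68.6 in controls (SD, n = 4 and 3; log2 fold change 0.02 ± 0.09, adjusted p = 0.924). Timp4 had 0 to 0.214 CPM and was not tested.

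**Figure D3:**
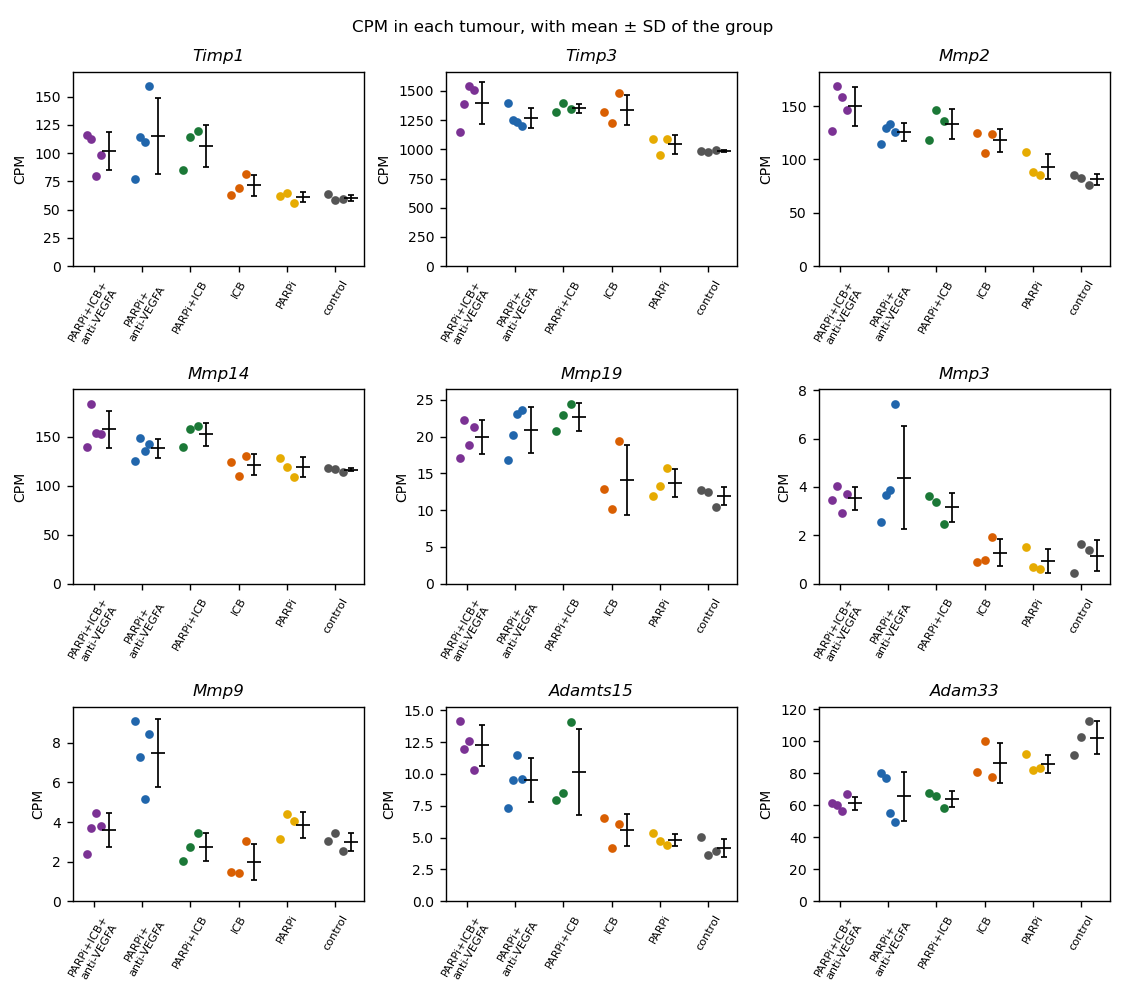
CPM of 9 members in each tumour (points), with the mean and SD of each group beside them, treatments left and controls right. Timp1, Mmp2 and Mmp19 lie above all controls in the 3 combinations, Mmp9 stands out with PARPi+anti-VEGFA (5.14 to 9.11 CPM), and Adam33 lies below all controls in the 3 combinations.

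Mmp2, the gelatinase made mainly by stromal cells, was called in 4 of the 5 comparisons with control. It had 126, 169, 158 and 147 CPM in the full combination, 115, 129.7, 133 and 126 CPM with PARPi+anti-VEGFA, 118, 146 and 136 CPM with PARPi+ICB, 124, 106 and 124 CPM with ICB, 107, 87.8 and 85.4 CPM with PARPi, against 85.9, 82.7 and 75.8 CPM in controls. All libraries of the ICB group and of the 3 combinations lay above the controls, and the PARPi group overlapped with them. The log2 fold change was 0.88 ± 0.10 in the full combination (adjusted p = 4.61e-05), 0.63 ± 0.10 with PARPi+anti-VEGFA (0.000927), 0.71 ± 0.11 with PARPi+ICB (0.000478) and 0.53 ± 0.11 with ICB (0.0183). With the covariate it was called in the full combination (0.99, adjusted p = 0.000448) and with PARPi+ICB (0.89, 0.00988), and with PARPi+anti-VEGFA the value was 0.88 at an adjusted p of 0.105. Replicate 4 of the full combination, which lay in the control range only in the mean of the 3 quality RNAs, held 147 CPM. The ICB call was lost without control replicates 2 or 3 or ICB replicates 1 or 3, at adjusted p of 0.053 to 0.0721.

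Mmp14 encodes MT1-MMP, the membrane protease that activates pro-MMP2 together with TIMP2. Its values were 139, 184, 154 and 152 CPM in the full combination, 126, 148, 136 and 142 CPM with PARPi+anti-VEGFA, 139, 158 and 161 CPM with PARPi+ICB, 124, 109 and 131 CPM with ICB, 129, 119.5 and 109 CPM with PARPi, against 118, 117 and 114 CPM in controls. It rose by 0.44 ± 0.09 in the full combination (adjusted p = 0.00222) and by 0.39 ± 0.09 with PARPi+ICB (0.00919) on the log2 scale. With PARPi+anti-VEGFA the groups did not overlap either, but the change of 0.25 ± 0.09 missed the threshold (adjusted p = 0.0616). Of the other membrane-type MMPs, Mmp25 (leukolysin, held by a lipid anchor on leukocytes) rose in the 3 combinations, by 1.14 ± 0.23 in the full combination, 1.42 ± 0.23 with PARPi+anti-VEGFA and 0.88 ± 0.24 with PARPi+ICB (adjusted p = 0.00216, 0.000927 and 0.0204). It stood at 5.07, 5.53 and 3.81 CPM with PARPi, against 2.2, 3.39 and 1.79 CPM in controls, where the change of 0.96 ± 0.24 was not called (0.121). With PARPi+ICB the groups overlapped, and the call was lost without control replicates 1 or 3 or PARPi+ICB replicate 3. Mmp15 (MT2-MMP) fell by 0.58 ± 0.19 with PARPi+ICB (adjusted p = 0.0455), a call lost without any of 5 single libraries, at adjusted p up to 0.16.

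Mmp9, the gelatinase of neutrophils and macrophages, moved otherwise. It had 2.4, 3.71, 4.47 and 3.79 CPM in the full combination, 9.11, 7.27, 5.14 and 8.43 CPM with PARPi+anti-VEGFA, 2.04, 2.72 and 3.44 CPM with PARPi+ICB, 1.48, 1.43 and 3.05 CPM with ICB, 3.14, 4.4 and 4.04 CPM with PARPi, against 3.02, 3.46 and 2.51 CPM in controls. All 4 PARPi+anti-VEGFA libraries lay above every library of the other groups, and the other treatments overlapped with the controls. The log2 fold change over control was 1.32 ± 0.28 with PARPi+anti-VEGFA (adjusted p = 0.00388), and 0.26 ± 0.28 in the full combination (0.538). The difference between the full combination and PARPi+anti-VEGFA was -1.06 ± 0.25 on the log2 scale and was not called by edgeR (adjusted p = 0.104), while DESeq2 called it at 0.00477. With the covariate the change with PARPi+anti-VEGFA was 1.90, at an adjusted p of 0.129. The 10 neutrophil markers summed to 33.1 to 51.4 CPM in the full combination, 23.5 to 31.1 CPM with PARPi+anti-VEGFA and 29.9 to 48.3 CPM with PARPi+ICB, against 13.6 to 20.4 CPM in controls. ICB libraries held 19.3 to 93.5 CPM and PARPi libraries 20.2 to 24.3 CPM. The mean log2 CPM of this list with PARPi+anti-VEGFA (-1.86 to -0.34) overlapped with controls (-1.57 to -0.83). Of 9 tested neutrophil markers 2 rose in each combination. Of all genes 12.6% were called higher in the full combination, 9.99% with PARPi+anti-VEGFA and 9.58% with PARPi+ICB. The 9 macrophage markers summed to 2539 to 3281 CPM in the full combination, 2777 to 2967 CPM with PARPi+anti-VEGFA and 2209 to 3410 CPM with PARPi+ICB, against 1703 to 2041 CPM in controls. The part of both lists in the Mmp9 change was not tested.

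Among the remaining MMPs, Mmp19, a broad-acting secreted MMP, had 17.1, 22.3, 18.9 and 21.4 CPM in the full combination, 16.9, 20.2, 23.1 and 23.6 CPM with PARPi+anti-VEGFA, 20.7, 23 and 24.5 CPM with PARPi+ICB, against 12.7, 12.5 and 10.5 CPM in controls. No library of a combination reached down to the controls. The log2 fold change was 0.74 ± 0.18 in the full combination, 0.81 ± 0.18 with PARPi+anti-VEGFA and 0.93 ± 0.19 with PARPi+ICB (adjusted p = 0.00598, 0.00482 and 0.00277). Mmp19 shares 789 exon bases with Tmem198b on the opposite strand. Mmp23, an MMP with a membrane anchor at its amino end, rose by 0.79 ± 0.13, 0.64 ± 0.13 and 0.55 ± 0.13 in the same comparisons (adjusted p = 0.000383, 0.00271 and 0.0101), the last of which was lost without PARPi+ICB replicate 3 (0.0535). Mmp11, the most abundant MMP, fell by 0.27 ± 0.08 with PARPi+anti-VEGFA, with 110.2, 118, 109 and 103 with PARPi+anti-VEGFA against 143, 126 and 128 in controls (CPM, adjusted p = 0.0331). That call was lost without any of 6 single libraries. Mmp11 shares 155 exon bases with Chchd10 on the opposite strand.

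A set of 9 Mmp genes lies side by side on chromosome 9, from base 7272514 to 7699585 of GRCm38 (427 kb), and its members moved apart. The AP-1 motif, the site of Fos and Jun proteins that is known for driving collagenase and stromelysin genes, was searched on both strands as TGANTCA from 250 bases before to 50 after the start in RefSeq promoter windows (GRCm38.p6). It was present for 7 of the 9 genes and for 5 of 40 other members with a window, and in 7.81% of all 32851 windows, some genes having more than 1. TATAAA, the TATA box, was found for 14 of the 49 members with a window and in 13.6% of all windows. The 120 bases before the start of 4 cluster genes on the plus strand are shown because these genes gave different results, with AP-1 matches in capitals.
Mmp13, chr9:7272394-7272513: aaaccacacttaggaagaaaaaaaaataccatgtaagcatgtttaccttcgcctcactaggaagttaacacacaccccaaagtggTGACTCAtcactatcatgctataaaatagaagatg
Mmp3, chr9:7445702-7445821: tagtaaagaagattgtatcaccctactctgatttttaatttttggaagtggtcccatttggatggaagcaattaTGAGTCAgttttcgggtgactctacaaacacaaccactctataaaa
Mmp10, chr9:7502222-7502341: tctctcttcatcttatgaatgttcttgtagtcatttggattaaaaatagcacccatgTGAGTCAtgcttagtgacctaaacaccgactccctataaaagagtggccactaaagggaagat
Mmp27, chr9:7571276-7571395: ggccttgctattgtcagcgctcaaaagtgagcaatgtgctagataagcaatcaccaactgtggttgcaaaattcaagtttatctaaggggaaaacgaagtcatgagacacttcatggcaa
The match begins at -35 in Mmp13, -46 in Mmp3 and -63 in Mmp10, counted from the start, and Mmp27 has none in the whole window.

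Mmp3 (stromelysin-1) had 3.47, 4.03, 2.91 and 3.69 CPM in the full combination, 2.53, 3.68, 3.87 and 7.44 CPM with PARPi+anti-VEGFA, 3.61, 3.37 and 2.48 CPM with PARPi+ICB, 0.912, 0.996 and 1.94 CPM with ICB, 1.5, 0.675 and 0.604 CPM with PARPi, against 0.441, 1.65 and 1.39 CPM in controls. Every combination library lay above all controls. It rose by 1.61 ± 0.43 in the full combination, 1.92 ± 0.43 with PARPi+anti-VEGFA and 1.45 ± 0.45 with PARPi+ICB on the log2 scale (adjusted p = 0.0119, 0.0059 and 0.0349). The call with PARPi+ICB was lost without any of 5 single libraries and that in the full combination without control replicate 1 (1.21, 0.057). Mmp27 was called higher in the same comparisons, by 2.76, 1.80 and 2.01 (adjusted p = 0.002, 0.0385 and 0.0282), but rests on few reads, with counts of 27, 24, 16 and 15 in the full combination and 1, 7 and 1 in controls. No control reached the limit of the filter on low counts (0.321 CPM in 3 libraries), and Mmp27 passed it only with libraries of the combinations. With no filter the calls with PARPi+anti-VEGFA and PARPi+ICB were lost (adjusted p = 0.0701 and 0.0508). Without 1 library at a time only the call in the full combination was kept throughout. Mmp13, a collagenase, had 9.83, 8.92, 7.67 and 9.8 in the full combination, 14, 14.8, 13 and 16.9 with PARPi+anti-VEGFA and 10.4, 12 and 16.2 in controls (CPM). It fell by 0.51 ± 0.15 in the full combination (adjusted p = 0.0223), which shrank to a fall of 0.31 without control replicate 3 (0.171) and was not called with PARPi+anti-VEGFA (0.19 ± 0.15). Mmp10 (stromelysin-2, shown for its place in the cluster) did not pass the test, with log2 fold changes of -0.12 ± 0.30, 0.06 ± 0.30 and 0.00 ± 0.32 in the 3 combinations. Among the shown genes with an AP-1 match before the start, Mmp3 rose, Mmp13 fell in 1 comparison and Mmp10 missed the threshold. These genes were picked for their different results, and a link between a match and a change was not tested. A match says nothing of binding in these tumours.

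**Figure D4:**
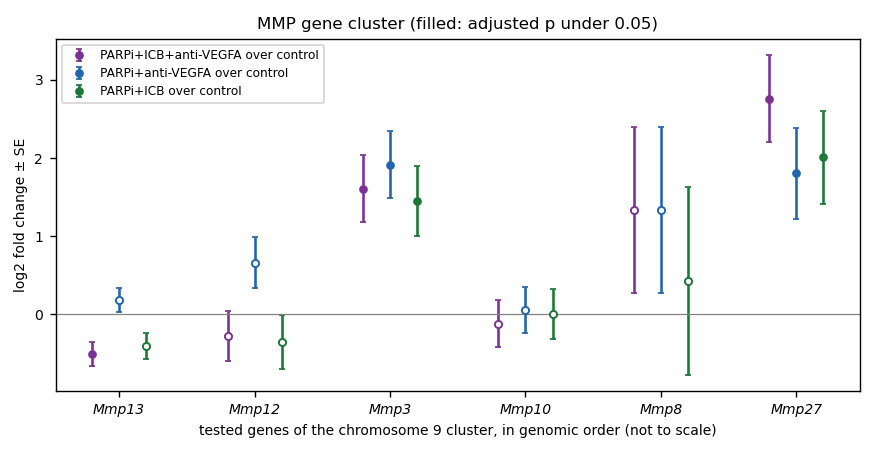
Log2 fold change ± SE over controls of the 6 tested genes of the chromosome 9 cluster in genomic order, for the full combination, PARPi+anti-VEGFA and PARPi+ICB. Filled points have an adjusted p under 0.05. Mmp3 and Mmp27 are above 0 with filled points throughout, Mmp13 is filled below 0 in the full combination, and Mmp12, Mmp10 and Mmp8, shown for their place in the cluster, have open points.

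Of the sheddases with the widest known roles, Adam10 did not pass the test in any comparison, with 257 to 335 CPM under treatment and 319 to 349 in controls. Its log2 fold change was -0.15 ± 0.07 in the full combination (adjusted p = 0.128). Adam17, which releases TNF and ligands of the EGF receptor, rose by 0.27 ± 0.07 with PARPi+anti-VEGFA, at 91.2, 88.8, 99.1 and 107 with PARPi+anti-VEGFA against 79.1, 84.8 and 76.8 in controls (CPM, adjusted p = 0.0138). That call was lost without control replicates 1 or 3 (0.0501 and 0.0672). Adam9 rose there by 0.28 ± 0.09 (adjusted p = 0.043), a call lost without any of 5 single libraries. Adam15 (metargidin) had 89.6 ± 14.6 CPM in the full combination and 83.6 ± 7.26 in controls (SD, n = 4 and 3; adjusted p = 0.558). Adam15 shares 1263 exon bases with 4731419I09Rik on the opposite strand, and Adam17 shares 311 with Iah1.

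Adam8 and Adam19 rose in all 3 combinations, and Adam33 fell. Adam19 (meltrin beta, a sheddase of neuregulin) had 43.9, 42.8, 56.1 and 48.7 CPM in the full combination, 46.5, 41.1, 50.8 and 52.1 CPM with PARPi+anti-VEGFA, 47.8, 43.2 and 56 CPM with PARPi+ICB, 33.1, 43.2 and 39.1 CPM with ICB, 41.8, 38.6 and 35.8 CPM with PARPi, against 30.9, 29.5 and 27.6 CPM in controls. All treated libraries lay above the controls, in the PARPi and ICB groups as well, where the changes of 0.40 ± 0.12 and 0.39 ± 0.12 were not called (adjusted p = 0.19 and 0.0985). Its log2 fold change was 0.71 ± 0.11 in the full combination, 0.70 ± 0.11 with PARPi+anti-VEGFA and 0.74 ± 0.12 with PARPi+ICB (adjusted p = 0.000412, 0.000928 and 0.000742). Adam19 shares 587 and 480 exon bases with Gm16033 and Gm16034 on the opposite strand. Adam8, an ADAM of leukocytes, rose by 0.68 ± 0.18, 0.88 ± 0.18 and 0.74 ± 0.19 in these comparisons (adjusted p = 0.00995, 0.00285 and 0.0115). Its call in the full combination was lost without control replicate 3 (0.054), and that with PARPi+ICB without control replicate 3 or PARPi+ICB replicate 3. Adam8 shares 46 exon bases with Gm16201 on the opposite strand.

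Adam33, an ADAM of mesenchymal cells and in humans a gene linked to asthma, had 61.1, 59.99, 56.6 and 66.8 CPM in the full combination, 79.97, 77.2, 55.1 and 49.4 CPM with PARPi+anti-VEGFA, 67.6, 66 and 58.3 CPM with PARPi+ICB, 81, 100.3 and 77.5 CPM with ICB, 91.8, 81.8 and 83.3 CPM with PARPi, against 91.5, 103 and 112 CPM in controls. No library of a combination reached up to the lowest control, and PARPi and ICB libraries lay partly in the control range. The log2 fold change was -0.74 ± 0.14 in the full combination, -0.64 ± 0.14 with PARPi+anti-VEGFA and -0.68 ± 0.15 with PARPi+ICB (adjusted p = 0.00112, 0.00423 and 0.00506), and all 3 calls were kept without any single library. The 7 pericyte markers were also lower in these groups, with sums of 226 to 360.2, 233 to 372 and 234 to 291 CPM in the same order, against 402 to 508 CPM in controls. Their sums with PARPi (356 to 364 CPM), where Adam33 was not called, lay below all controls too, and those with ICB (380 to 439 CPM) overlapped. Other mesenchymal lists moved otherwise. In the 3 combinations the 9 fibroblast markers summed to 4333 to 5283, 3640 to 5247 and 3934 to 4690 CPM in that order, against 2890 to 3201 CPM in controls. Of 5 smooth muscle markers 0 were called by edgeR in these comparisons. The part of these lists in the change of Adam33 was not tested.

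Of the 3 tested ADAMs that lack protease activity, Adam11 and Adam23 rose in the full combination (0.98 ± 0.26 and 0.77 ± 0.21) and with PARPi+anti-VEGFA (0.86 ± 0.26 and 1.18 ± 0.21), and Adam22 with PARPi+ICB (0.72 ± 0.24), with adjusted p of 0.0107, 0.0124, 0.0285, 0.00144 and 0.0492. Only Adam23 with PARPi+anti-VEGFA was kept without any single library. Of the 5 tested ADAMs of testis and germ cells, Adam25 fell by 1.84 ± 0.42 with PARPi+ICB (adjusted p = 0.00633), at 0.32, 0.494 and 0.331 with PARPi+ICB against 0.976, 1.34 and 1.82 in controls (CPM), and its values with PARPi+anti-VEGFA (1.21 to 1.41 CPM) lay inside the control range. Adam6b, which lies among the immunoglobulin heavy chain genes on chromosome 12, was called higher by 1.76 ± 0.52 in the full combination and 2.20 ± 0.53 with PARPi+ICB (adjusted p = 0.0206 and 0.00941). It had 0.779, 0.25, 0.647 and 0.276 CPM in the full combination, 0.901, 0.402 and 0.695 CPM with PARPi+ICB, against 0.126, 0.168 and 0.132 CPM in controls. Adam6b rests on few reads, with counts of 4, 5 and 4 in controls. It passed the filter on low counts only with libraries of the combinations, so it could enter the test only by being high there. The call in the full combination was lost without any of 5 single libraries, and its near copy Adam6a held no read. The 8 markers of B and plasma cells summed to 1389 to 4613 CPM in the full combination and 1960 to 3640 CPM with PARPi+ICB, against 556 to 921 CPM in controls, and their part in the Adam6b change was not tested.

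Among the 7 ADAMTS genes known to cut versican and aggrecan, Adamts15 rose in the 3 combinations. It had 14.2, 11.9, 12.6 and 10.3 CPM in the full combination, 7.31, 9.54, 11.5 and 9.6 CPM with PARPi+anti-VEGFA, 7.94, 8.49 and 14.1 CPM with PARPi+ICB, 6.54, 4.15 and 6.09 CPM with ICB, 5.33, 4.75 and 4.39 CPM with PARPi, against 5, 3.66 and 3.94 CPM in controls. All libraries of the combinations lay above all others in the PARPi, ICB and control groups. The log2 fold change over control was 1.54 ± 0.21 in the full combination, 1.17 ± 0.21 with PARPi+anti-VEGFA and 1.27 ± 0.22 with PARPi+ICB (adjusted p = 0.000135, 0.00163 and 0.00105). Adamts9, far more abundant per kb, fell by 0.67 ± 0.15 in the full combination, with 159, 130.0, 118 and 171 in the full combination against 229, 256 and 202 in controls (CPM, adjusted p = 0.00384). With PARPi+ICB its change of -0.47 ± 0.16 missed the threshold (0.0511). Adamts9 overlaps 1381 exon bases of A730049H05Rik on the opposite strand. The other 5 genes of this group did not pass the test against control in any combination.

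Of the procollagen N-proteinases, Adamts14 fell by 0.35 ± 0.11 in the full combination (adjusted p = 0.025), a call lost without any of 5 single libraries. Among ADAMTS genes tied to fibrillin microfibrils, Adamts6 rose in the 3 combinations and with ICB, by 0.66 ± 0.18 in the full combination, 0.65 ± 0.18 with PARPi+anti-VEGFA, 0.70 ± 0.19 with PARPi+ICB and 0.88 ± 0.19 with ICB (adjusted p = 0.0141, 0.0202, 0.0197 and 0.024), and each of these calls was lost without control replicate 1 or 3. Adamts10 fell by 0.32 ± 0.10 with PARPi+anti-VEGFA (adjusted p = 0.0321) and Adamts17 by 1.19 ± 0.36 with PARPi+ICB (0.0307), and both calls were lost without any of 5 single libraries. Adamts19 was nearly unread in controls, with counts of 3, 0 and 2, against 50, 69, 42 and 29 in the full combination, 42, 20, 36 and 12 with PARPi+anti-VEGFA and 75, 69 and 44 with PARPi+ICB. PARPi alone gave counts of 16, 8 and 11 and ICB 0, 2 and 11. Every combination library lay above all ICB and control libraries, and PARPi+anti-VEGFA replicate 4 (0.454 CPM) lay just below PARPi replicate 1 (0.461 CPM). The gene was called in all 3 combinations (adjusted p = 0.000353, 0.00268 and 0.000478), and the calls were kept without any single library and with no filter on low counts. No control reached the limit of that filter, which Adamts19 passed through treated libraries. The call with PARPi+anti-VEGFA was lost with limma with no filter (0.0762) and with the covariate (0.259). The size of the fold is poorly fixed with so few control reads.

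Adding an agent to PARPi was tested next. With ICB added (PARPi+ICB against PARPi) 2 members were called, both higher, where 1.26% of all genes were called and 0.882% called higher. These were Adamts15 (1.07 ± 0.22, adjusted p = 0.0233) and Mmp2 (0.51 ± 0.11, 0.0271). With anti-VEGFA added (PARPi+anti-VEGFA against PARPi) 3 were called, all higher, where 0.573% of all genes were called and 0.298% called higher. These were Mmp3 (2.22 ± 0.44, adjusted p = 0.0366), Timp1 (0.91 ± 0.19, 0.0395) and Adamts15 (0.97 ± 0.21, 0.0447). Each of these 5 calls was lost without at least 4 of the single libraries, PARPi replicates 2 and 3 among them, and their counts ran from 0 to 3 and from 0 to 4 when a library was left out. Calls among all genes then ran from 26 to 293 and from 0 to 205. DESeq2 called 9 members for ICB added, against 4.85% of all genes, and 10 for anti-VEGFA added, against 4%.

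The full combination against PARPi+ICB gave 0 called members, against 0% of all genes, and DESeq2 also called 0 members. At an unadjusted p under 0.05 there were 2 of 55 members, against 745 of all 18144 genes. Against PARPi+anti-VEGFA the full combination also gave 0, where 0.0882% of all genes were called. There 13 of 55 members had an unadjusted p under 0.05, against 2262 of all 18144 genes. DESeq2 called 3 there, against 1.57% of all genes, and all were lower, Mmp9, Mmp13 (-0.69 ± 0.14 by edgeR, adjusted p = 0.0701) and Adamts9 (-0.49 ± 0.14, 0.169). Neither interaction (ICB by PARPi, and anti-VEGFA by ICB under PARPi) had a called member, against 0% of all genes, and DESeq2 called 0 members. At an unadjusted p under 0.05 there were 8 and 9 of 55 members, against 946 and 1188 of all 18144 genes. For Timp1 the second interaction was -0.98 ± 0.26 (adjusted p = 0.595) and for Mmp3 -2.06 ± 0.58 (0.614), both short of the threshold.

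Partner genes of the proteases were listed by role. Their counts stand against 12.6% of all genes called higher and 11.5% lower in the full combination, 9.99% and 7.8% with PARPi+anti-VEGFA, and 9.58% and 6.52% with PARPi+ICB. Of 14 tested matrix substrates, 6 rose in the full combination, 5 with PARPi+anti-VEGFA and 5 with PARPi+ICB, and none fell, with median log2 fold changes of 0.25, 0.24 and 0.39 (-0.02 over all genes). Versican (Vcan), a substrate of ADAMTS proteases, averaged 20.03 ± 3.05 CPM in the full combination, 24.2 ± 6.78 with PARPi+anti-VEGFA and 22 ± 0.963 with PARPi+ICB, against 9.2 ± 0.121 in controls (SD; adjusted p = 0.00591, 0.00237 and 0.00569). The collagen genes Col1a1, Col1a2 and Col3a1 were called higher in the same comparisons, Col1a2 by 0.76 ± 0.15, 0.71 ± 0.15 and 0.71 ± 0.16. Of 21 tested sheddase substrates, 7 rose and 1 fell in the full combination, 7 rose and 1 fell with PARPi+anti-VEGFA, and 3 rose and 1 fell with PARPi+ICB, the last close to the 16.1% of all genes called there. Their median changes were 0.20, 0.21 and 0.15. Notch1 rose by 0.75 ± 0.11, 0.71 ± 0.11 and 0.70 ± 0.12 in this order and Cdh1 (E-cadherin) by 1.04 ± 0.18, 0.86 ± 0.17 and 0.86 ± 0.18, while Tgfa fell by 0.40 ± 0.10, 0.47 ± 0.10 and 0.44 ± 0.11.

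Of 11 tested ADAMTS-like genes and other inhibitors, 4 rose and 2 fell in the full combination, 3 rose and 0 fell with PARPi+anti-VEGFA, and 1 rose and 2 fell with PARPi+ICB, where 24.2%, 17.8% and 16.1% of all genes were called either way, so these counts lie only a few genes from the background. Reck, a membrane-anchored inhibitor of MMPs, rose by 0.87 ± 0.24 in the full combination and 0.80 ± 0.24 with PARPi+anti-VEGFA (adjusted p = 0.0146 and 0.0303), and Thsd4, an ADAMTS-like gene, fell by 0.53 ± 0.10 in the full combination (0.00163). Of 11 tested cofactors and propeptide convertases, 1 rose in each combination (Pcsk5, a convertase, by 0.95 ± 0.27 in the full combination), and 1 fell in the full combination, 2 with PARPi+anti-VEGFA and 1 with PARPi+ICB, which is no more than a gene or so from the same background. Tspan5, a tetraspanin partner of ADAM10, fell by 0.37 ± 0.10 in the full combination and 0.40 ± 0.10 with PARPi+anti-VEGFA. Of 6 tested genes of plasminogen activation, a system known to activate MMP proenzymes, 0 were called by edgeR in any of the 3 combinations. At an unadjusted p under 0.05 there were 1, 4 and 3 in the full combination, with PARPi+anti-VEGFA and with PARPi+ICB. Of all 18144 genes, 6565, 5838 and 5458 had such a p. DESeq2 called 1, 3 and 3 of the 6 plasminogen genes and limma 0.

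Several marker lists, though not all, also changed in the combinations, where 24.2% of all genes were called in the full combination, 17.8% with PARPi+anti-VEGFA and 16.1% with PARPi+ICB. Of 9 fibroblast markers, 7 rose and 1 fell in the full combination, 6 rose with PARPi+anti-VEGFA and 5 with PARPi+ICB, and their sum was 4333 to 5283, 3640 to 5247 and 3934 to 4690 CPM in this order, against 2890 to 3201 CPM in controls. Col1a1, Col1a2 and Col3a1 are in this list as well as among the matrix substrates. Of 9 macrophage markers, 9, 8 and 8 rose, with sums of 2539 to 3281, 2777 to 2967 and 2209 to 3410 CPM, against 1703 to 2041 CPM in controls. Of 7 pericyte markers, 6, 4 and 5 fell, and of 9 markers of ID8 epithelial and mesothelial cells 5, 6 and 5 fell and 1, 0 and 0 rose, with sums of 2111 to 2461, 2032 to 2357 and 2114 to 2362 CPM, against 2695 to 3040 CPM in controls. No marker of these 4 lists was at 0 in any group, the ID8 markers being present in all. Of 7 T cell markers, all 7 rose in each combination, with sums of 81.6 to 130.5, 57.8 to 86.3 and 67.3 to 113 CPM, against 28.8 to 38.7 CPM in controls, and of 8 markers of B and plasma cells 8, 6 and 8 rose. Median log2 fold changes of the T cell list were 1.78, 1.26 and 1.5, larger than those of the macrophage (0.75, 0.70 and 0.63) and fibroblast lists (0.64, 0.56 and 0.54). Of 5 tested adipocyte markers 4, 4 and 2 rose, with sums of 32.6 to 88.5, 19.5 to 96.8 and 28.4 to 34.7 CPM, against 16.1 to 17.1 CPM in controls. Of 6 mast cell markers 4 rose and 1 fell in the full combination, 0 were called with PARPi+anti-VEGFA, and 2 rose and 1 fell with PARPi+ICB. Of 7 erythroid markers 0, 2 and 2 fell, of 6 tested skeletal muscle markers 1 fell in each, and of 10 acinar markers 1, 0 and 0 rose. By edgeR 0 of 7 endothelial and 0 of 5 smooth muscle markers were called in any combination. At an unadjusted p under 0.05 there were 1, 0 and 2 endothelial and 1, 1 and 1 smooth muscle markers, against 6565, 5838 and 5458 of all 18144 genes. DESeq2 called 0 endothelial and 1, 0 and 1 smooth muscle markers, and limma called 0. Some lists also differed from controls with PARPi or ICB alone, where 0 and 3 members were called. The ID8 list summed to 2416 to 2453 and 2363 to 2597 CPM there, below all controls. T cell sums of 43 to 58 and 48.1 to 58.4 CPM lay above all controls. Those of B and plasma cells, 1434 to 2534 and 1702 to 2332 CPM, lay above 556 to 921 CPM in controls. The part of these lists in the changes of the proteases and inhibitors was not tested.

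**Figure D5:**
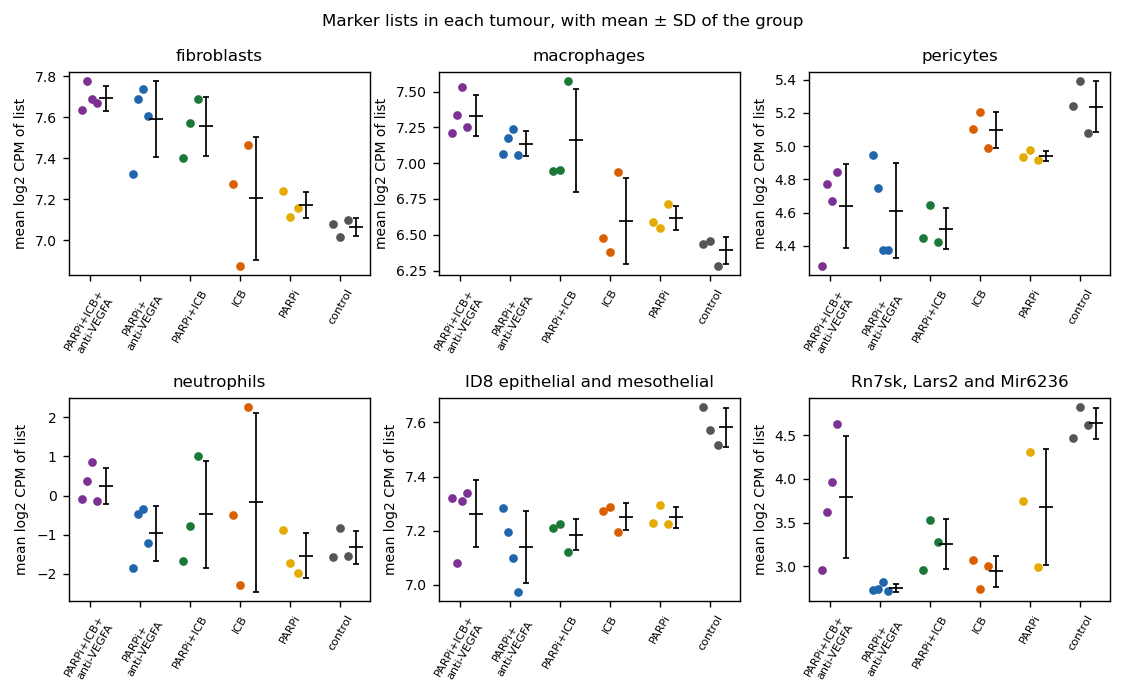
Mean log2 CPM of 5 marker lists and of the RNAs Rn7sk, Lars2 and Mir6236 in each tumour (points), with mean ± SD of each group, treatments left and controls right. Fibroblast and macrophage lists lie above all controls in the 3 combinations, the pericyte list lies below them, and the 3 RNAs are lowest with PARPi+anti-VEGFA (2.72 to 2.81).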

How the data were processed

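RNA of 20 tumours in 6 groups was analysed from 2 deposited tables. Per the submitters' processing notes, the authors used STAR, HTSeq and GRCm38. Versions, annotation and strand setting are not given in the sources used here. The deposited count table holds whole-number counts per Ensembl gene, not normalized. The second deposited table holds log2(RPKM + 1). On 12392 genes, the length implied by count and RPKM was compared with the genomic span of the gene, introns included. After scaling by the median ratio over genes, 99.7% of genes lay within 2% of proportion to the span. The implied length was in the median 5.3 times the exon length. Levels between genes were therefore computed here as CPM per kb of GENCODE M21 exon length, in place of the deposited RPKM planned for them.

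Tests were run in R 4.3.3 with edgeR 4.0.16 (filterByExpr with a minimum count of 10 and total of 15, TMM, 1 coefficient per group over all 20 libraries, quasi-likelihood F tests for 11 contrasts, Benjamini-Hochberg over 18144 genes, calls at an adjusted p under 0.05). The SE of a log2 fold change was its size over the root of F. Totals ran from 26.9 to 34.7 M counts. Replicates of a group differed beyond counting noise (chi-squared over its degrees of freedom 19.7 to 144). On simulated counts with 200 changed genes of at least 2 CPM among 18144 genes, 84% of 2-fold and 97% of 4-fold changes were recovered in the full combination against control, with 5.73% false calls. These rates do not cover smaller changes, genes under 2 CPM such as Mmp27, or PARPi or ICB alone. The simulated share of changed genes was also far below the 24.2% called in the full combination.

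The alternatives were size factors of DESeq2, no filter on low counts, a replicate block, DESeq2 1.42.0, limma 3.58.1 on the deposited log2 values (also with no filter and with a pseudocount of 0.1), the compared groups alone, the fit without 4 libraries with acinar RNA, a quality covariate (log2 CPM averaged over Rn7sk, Lars2, Mir6236), and each library left out. The members, gene lists and alternatives were chosen with earlier results of these data known, so no test was run over a list. Named genes are members called in at least 1 contrast, Mmp2, Mmp9, Mmp14, the Timp genes, Adam10 and Adam17, the 10 members with the highest mean deposited RPKM, and up to 4 genes of each partner or marker list. Others are marked where they appear. That ranking by deposited RPKM differs from the ranking by exon length in the Results. Promoter windows are those of RefSeq (GRCm38.p6), found for 49 members.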

Additional observations from a re-analysis of the deposited data

Results flagged for a closer look

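In groups of 4 mice, 66 sets of values were screened for 1 library far from the other 3 (gap over range above 0.829), which chance gives in about 1 of 20 sets, and 3 met it. Adam8 stood at 41.2 CPM in PARPi+anti-VEGFA replicate 4, against 26.8 to 28.8 CPM in the other 3 libraries of that group. Mmp23 stood at 13.9 CPM in the same library, against 16.8 to 17.3 CPM. Mmp25 stood at 7.09 CPM in full combination replicate 3, against 4.67 to 5 CPM in the others. PARPi+anti-VEGFA replicate 4 also had the highest Timp1 (159 CPM) and Mmp3 (7.44 CPM) of the 20 libraries and is among those with acinar RNA. The calls of Adam8 and Mmp23 with PARPi+anti-VEGFA and of Mmp25 in the full combination against control were kept without any single library.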

How the results depend on the processing

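No alternative reversed a member's called change. For PARPi against control, DESeq2 called 1 member in place of 0, and 338 of all genes in place of 12. For ICB against control the 3 calls became 1 without the acinar libraries, 0 with the quality covariate and 5 with DESeq2. The 400 calls among all genes became 356, 0 and 1035. The quality covariate left 6 of 20 members called for PARPi+ICB and 0 of 21 for PARPi+anti-VEGFA against control. Of all genes it left 630 and 0 called there. For the additions of ICB and anti-VEGFA to PARPi it left 1 and 0, against 92 and 1 of all genes. Log2 fold changes with PARPi+anti-VEGFA moved under it from 0.63 to 0.88 for Mmp2 and from 1.32 to 1.90 for Mmp9. That of Timp1 went from 0.92 to 0.88. For ICB added to PARPi (2 calls), no filter gave 7, the fit without acinar libraries 7, DESeq2 9, and limma 1 with and 1 without its filter. The 229 calls among all genes became 307, 302, 805, 149 and 102. For anti-VEGFA added to PARPi (3 calls), the fit without acinar libraries gave 1, the compared groups alone 1, DESeq2 10, and limma 0 with its filter, 0 without and 1 with a pseudocount of 0.1. The 104 calls among all genes became 89, 92, 640, 21, 9 and 66. For the full combination against PARPi+anti-VEGFA (0 calls), no filter gave 1 and DESeq2 3. The 16 calls among all genes became 63 and 261. The cause of these shifts was not tested.

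Leaving out 1 library at a time gave 0 to 0 members for PARPi, 0 to 2 for ICB, 12 to 20 for PARPi+ICB, 14 to 22 for PARPi+anti-VEGFA and 16 to 22 for the full combination against control, 0 to 3 and 0 to 4 for the additions of ICB and of anti-VEGFA to PARPi, and 0 in the other contrasts. Calls among all genes moved too. Against control they were 0 to 5, 72 to 316, 1337 to 2596, 1991 to 3171 and 2877 to 4143 in this order. For the 2 additions they were 26 to 293 and 0 to 205. Replicate numbers recur in the labels without a stated pairing. Over 46 pairs with the same number, deviations from group means correlated at -0.22 to 0.17, 4 pairs exceeded 0.1, and 6 of 20 libraries matched best with their own number, so the numbers were not used to pair mice. With a replicate block the calls were 5 in place of 2 for ICB added to PARPi and 1 in place of 3 for anti-VEGFA added to PARPi. Among all genes they were 277 in place of 229 and 93 in place of 104. Genes of few reads, such as Mmp27 and Adamts19, are limited by depth.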

Other observations

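Mmp8, the neutrophil collagenase, was named after its values were seen. It had 1.35 CPM in ICB replicate 3 and 0 to 0.491 CPM in the other 19 libraries. The mean log2 CPM of the neutrophil markers was also highest in that library, at 2.25, against -2.28 and -0.49 in the other ICB libraries and -1.57 to -0.83 in controls. Mmp12, the macrophage elastase, also named after its values were seen, averaged 14.2 ± 2.06 CPM in the full combination, 27.2 ± 7.54 CPM with PARPi+anti-VEGFA and 13.4 ± 5.76 CPM with PARPi+ICB, against 17.2 ± 4.42 CPM in controls (SD, n = 4, 4, 3 and 3), and was not called in any contrast. Its highest library was PARPi+anti-VEGFA replicate 4, at 37.7 CPM.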
